A study of Homo sapiens with 12 samples.

Results

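Regions of open chromatin that are called in a retinal pigment epithelial line and in embryonic stem cells alike were followed here across 6 ATAC-seq libraries. ATAC-seq uses the Tn5 transposase to insert adapters into accessible DNA, and a peak is called where the reads exceed the background around it. ARPE-19, a line that arose spontaneously from adult retinal pigment epithelium, was grown in serum-containing medium. H7, an embryonic stem cell line, was grown in mTeSR Plus, so line and medium cannot be told apart. Each line had 3 libraries of 500000 cells and no treatment is given in the labels. The labels call them triplicates without naming separate cultures, so all p-values measure the spread between these libraries.

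Peaks of the 6 lists on the 22 autosomes were merged wherever they overlapped by at least 1 base, which gave 81770 regions on the hg19 build. Of these, 1495 held a peak in 3 of 3 ARPE-19 and in 3 of 3 H7 libraries, and these are the shared regions described below. They made up 1.83% of all merged regions, 5.78% of the 25854 with a peak in every ARPE-19 library and 45.7% of the 3269 with one in every H7 library. The regions were chosen by the peak calls themselves, which rest on read number, so peak presence and strength are given as a description without a test. Summit positions did not enter the choice. The starts and ends of peaks did, through the overlaps that joined them. Results on widths, edges and shared bases are therefore not independent of the choice, and the joined peaks limit how far apart summits can lie. No gene model, repeat annotation or sequence of hg19 was used here, so the regions are given by position, neither the genes next to them nor marker genes of the lines were read, and no sequence is printed.

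As background, DNA that stays accessible in unrelated cell types lies largely at promoters of genes that every cell uses and at sites of the insulator protein CTCF, while enhancers tend to be open in particular cell types. A further source of peaks that recur in every library is DNA with many copies in the genome, such as the alpha satellite of centromeres and the ribosomal DNA. A reference genome holds only some of those copies, so reads from all of them pile up on the few that are placed. Such a pile-up has many reads, sharp edges and a high local background, and it can recur in unrelated cells.

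The lines differed in background and in the length of their peak lists. The lists give no read totals, but the genome-wide background of each library, in expected reads per position, was recovered from its peaks and was 0.425 to 0.483 in ARPE-19 and 0.592 to 0.653 in H7. Autosomal peaks numbered 38872 to 46942 per ARPE-19 library and 8295 to 14725 per H7 library. The fewest reads at the summit of any autosomal peak were 4 in each ARPE-19 library and 5 to 6 in H7. H7 thus had the higher background and the shorter lists, and the part of depth in the list lengths was not tested. A missing peak means only that a region was not called in that library.

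Shared regions took a small part of the ARPE-19 lists and a larger part of the shorter H7 lists. Of a library's autosomal peaks they held 3.57% ± 0.35 for ARPE-19 and 13.3% ± 4.2 for H7 (SD, n = 3). Among the 100 autosomal peaks with the highest -log10 q of each library, 32, 27 and 26 lay in shared regions in ARPE-19 replicates 1, 2 and 3. In H7 replicates 1, 2 and 3 the numbers were 65, 75 and 74. The median number of reads at the summit, recovered from the authors' fold enrichment and -log10 p, was 20, 18 and 21 in the ARPE-19 libraries and 15, 15 and 14 in the H7 libraries. Over all autosomal peaks these medians were 10 to 11 and 9 to 10.

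In most shared regions the weakest of the 6 calls was in an H7 library. The median over shared regions of the lowest -log10 q among the 6 libraries was 4.74, and the lowest of all was 1.33. That lowest value came from H7 replicate 3 in 561 regions, from H7 replicate 2 in 398 and from H7 replicate 1 in 331. Another 1186 regions lacked a peak in 1 H7 library and 158 in 1 ARPE-19 library. H7 replicate 3, the shortest list, was the missing one in 540 regions, against 335 for H7 replicate 1 and 311 for H7 replicate 2. The region just inside with the lowest mean percentile lay on chromosome 12 from 93771281 to 93771689, with 8, 6 and 7 summit reads in ARPE-19 and 10, 8 and 10 in H7. The others of the 3 lowest lay on chromosome 2 from 216878049 to 216878440 and from 138721699 to 138722332, with 5 to 12 summit reads each. The strongest region just outside, on chromosome 11 from 4629109 to 4629814, had 35, 40 and 47 reads in ARPE-19 and 27 and 21 in H7 replicates 1 and 2, but no peak in H7 replicate 3. The next lay on chromosome 7 from 8008004 to 8008441 without a peak in H7 replicate 2, and on chromosome 3 from 167813438 to 167814411 without one in H7 replicate 3. A strong region can thus fall outside through 1 library.

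The strongest shared regions had many reads, which bear on their choice, but differed among themselves in local background and edges. Over the 10 of highest mean percentile, the start or the end of the peak, whichever varied more, differed by 8 to 1510 bases between libraries. The region that ranked first in all 6 libraries lay on chromosome 1 from 121484430 to 121485424. It had 376, 323 and 300 summit reads in ARPE-19 replicates 1, 2 and 3, and 749, 613 and 599 in the H7 replicates. Its local background was 35.4 to 42.8 times that of the library in ARPE-19 and 44.9 to 53.4 times in H7. H7 was above ARPE-19 in every library in both measures.

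Its outline hardly moved between libraries, but its summit did. Both ends of the peak agreed within 8 bases over all 6 libraries. The summit lay 873, 873 and 875 bases from the first base of the region in ARPE-19 and 607 bases in each of the 3 H7 libraries. The difference of H7 from ARPE-19 was -267 bases (SE 21.4, limma with Benjamini-Hochberg adjustment over all shared regions, adjusted p = 0.00305). With the replicate number as a block in the limma fit, the adjusted p was 0.0669.

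A local background over 5 times that of the library in at least 4 of 6 libraries marked 6 of the 1495 regions as satellite or multicopy candidates, and 5 of them passed in all 6 libraries. A second region of this kind lay on chromosome 7 from 61968716 to 61969688, with 195, 178 and 148 reads in ARPE-19 and 178, 144 and 171 in H7, and all 6 summits lay within 14 bases. The one on chromosome 21 from 9825591 to 9827534 was 1944 bases wide, and its background was the highest of the 6 in ARPE-19, at 81.2 to 96.4 times that of the library, but not in H7, at 29.5 to 32.6 times. The one on chromosome 6 from 58776799 to 58779397 was the widest shared region, at 2599 bases. Its summits were spread over 2053 bases, with 243, 205 and 173 reads in ARPE-19 and 74, 80 and 80 in H7. The region on chromosome 1 from 91852793 to 91853149 was narrow, at 357 bases, with 181 to 205 reads in ARPE-19 and 123 to 141 in H7. The sixth, on chromosome 3 from 167452383 to 167453659, had 62 to 71 reads in ARPE-19 and 32 to 38 in H7.

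Those 6 were 0.401% of the shared regions. A background over 5 times that of the library in at least 2 in 3 of the libraries with a peak was found in 2.31% of the 21378 regions called in 3 ARPE-19 and 0 H7 libraries, in 0.136% of the 1470 called the other way and in 0.860% of all regions. The measure differed between the lines. It was passed in at least 1 ARPE-19 library by 175 shared regions and in at least 1 H7 library by 10, and in all 3 ARPE-19 libraries and no H7 library by 59. The ARPE-19 peaks also had more reads at the summit, by the medians above, and the part of a peak's own reads in its local background was not tested. Without H7 replicate 1, 2 or 3, with 3 of 5 libraries asked for, 69, 68 and 68 regions passed, so the count of 6 rests on requiring an H7 library.

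Sharp edges picked out a second set, chosen after its values were seen. Over all shared regions the start or the end of the peak, whichever varied more, differed by a median of 252 bases between libraries. In 7 regions both ends agreed within 25 bases, and 2 of these are among the 6 above. The other 5 lay on chromosome 8 from 70602343 to 70602519, chromosome 5 from 71146741 to 71146940, chromosome 1 from 156186276 to 156186590, chromosome 20 from 26188815 to 26189116 and chromosome 6 from 75994482 to 75994785.

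Most of them were also among the strongest. The chromosome 8 region was the narrowest shared region, 177 bases wide, and had 77, 72 and 95 summit reads in ARPE-19 and 48, 37 and 32 in H7. The chromosome 5 region was 200 bases wide, with 54, 48 and 48 reads in ARPE-19 and 28, 25 and 30 in H7. Its local background was 2.63 to 2.96 times that of the library in ARPE-19 and 1.26 to 1.29 times in H7. These values were below the limit of 5 times used above. Whether sharp edges mark DNA of many copies was not tested. The region at 156186276 on chromosome 1 was 315 bases wide, with 166, 130 and 139 reads in ARPE-19 and 80, 63 and 63 in H7.

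A region on chromosome 11 from 85195012 to 85195205 had the same shape, with edges within 27 bases, a width of 194 bases and all 6 summits within 11 bases. It had 115, 109 and 123 reads in ARPE-19 and 63, 51 and 55 in H7. The chromosome 6 region at 75994482 differed in that its reads, 11 to 22 over the 6 libraries, were close to the medians of the shared regions. Sharp edges over the 3 libraries of 1 line were not rare. They were found in 3.61% of shared and 2.63% of ARPE-19-only regions in ARPE-19, and in 2.21% of shared and 1.5% of H7-only regions in H7. How many copies of these sequences the genome holds was not analysed here.

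**Figure D1:**
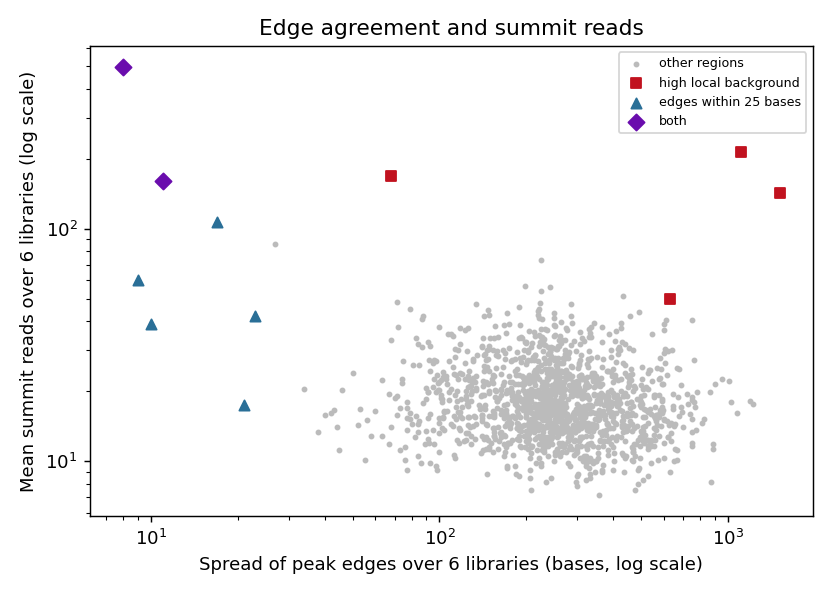
Each point is 1 of the 1495 shared regions. The horizontal axis is the larger of the spreads of the start and the end of the strongest peak over 6 libraries in bases, and the vertical axis is the mean number of summit reads over the 6 libraries, both on log scales. Squares and diamonds mark the 6 regions of high local background and triangles and diamonds the 7 whose edges agree within 25 bases. All but 1 of these lie above most of the other shared regions in reads.

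Several of these strong regions stood at the rim of stretches without any peak. In hg19 most centromeres are left as gaps of unknown sequence, next to which some satellite DNA is placed. On each autosome the longest stretch between neighbouring merged regions, with no peak in any of the 6 libraries, was found. Stretches before the first and after the last region of a chromosome were not counted. On chromosome 1 the longest counted stretch ran over 21.1 Mb and started 1 base past the region at 121484430. The region at 58776799 on chromosome 6 bordered a stretch of 3.54 Mb. The members next to such stretches were picked out after their values were seen. Shared regions on chromosome 4 from 52708893 to 52709422 and on chromosome 19 from 24269776 to 24270263 also bordered one directly. The regions at 26188815 on chromosome 20 and at 61968716 on chromosome 7 lay 10.1 kb and 83.4 kb away. These 6 within 100 kb were 0.401% of the shared regions, against 0.164% of all 81770 regions, 0.131% of ARPE-19-only regions and 0 of 1470 H7-only regions, which allows a share of up to 0.204% by counting error. Among the 1186 regions with a peak in 3 ARPE-19 and 2 H7 libraries the share was 0.422% (5 regions), so nearness to these stretches was not particular to the shared regions. The chromosome 19 region had no high background, at 2.41 to 3.25 times that of the library in ARPE-19 and 1.13 to 1.48 times in H7, so nearness to such a stretch and high background did not always go together. On chromosomes 13, 14, 15 and 22 the longest stretch between merged regions was 0.599 to 2.36 Mb, shorter than on the other autosomes. A longer stretch without a peak at the end of a chromosome would have been missed.

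Gene starts could not be placed, so the 10 regions of highest mean percentile outside the 6 were taken without regard to promoters. Besides 4 sharp-edged regions already given, on chromosomes 1, 11, 8 and 5 (the chromosome 11 region within 27 bases), they held 6 more. The one on chromosome 5 from 151150736 to 151151634 had 91, 100 and 112 reads in ARPE-19 and 41, 49 and 46 in H7. The one on chromosome 12 from 14956362 to 14957122 had 62, 66 and 73 reads in ARPE-19 and 34, 38 and 36 in H7. The others lay on chromosome 9 from 104160627 to 104161344, chromosome 15 from 98503450 to 98503985, chromosome 7 from 38217458 to 38218180 and chromosome 8 from 66546150 to 66546853, with 58 to 94 reads in ARPE-19 and 22 to 43 in H7. Summit reads in these 6 regions were higher in ARPE-19, as were the medians over all shared regions, at 18 to 21 against 14 to 15 in H7. In each of the 6 regions all 6 summits fell within 92 bases.

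Peaks in shared regions were wider in ARPE-19 than in H7. Their median width was 426, 410 and 456 bases in ARPE-19 replicates 1, 2 and 3, and 310, 303 and 280 bases in the H7 replicates, so the lines did not overlap. The means were 431 ± 23.4 and 298 ± 15.7 bases (SD, n = 3). The difference of H7 from ARPE-19 in median log2 width was -0.53 (two-sided exact permutation test, 20 assignments, p = 0.1), and 0.1 is the smallest p that 3 against 3 libraries can give. Over all autosomal peaks the medians were 261 to 276 and 224 to 229 bases. The width of a called peak depends on depth and on the number of reads. Background and summit reads differed between the lines, and their part in the result was not tested.

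**Figure D2:**
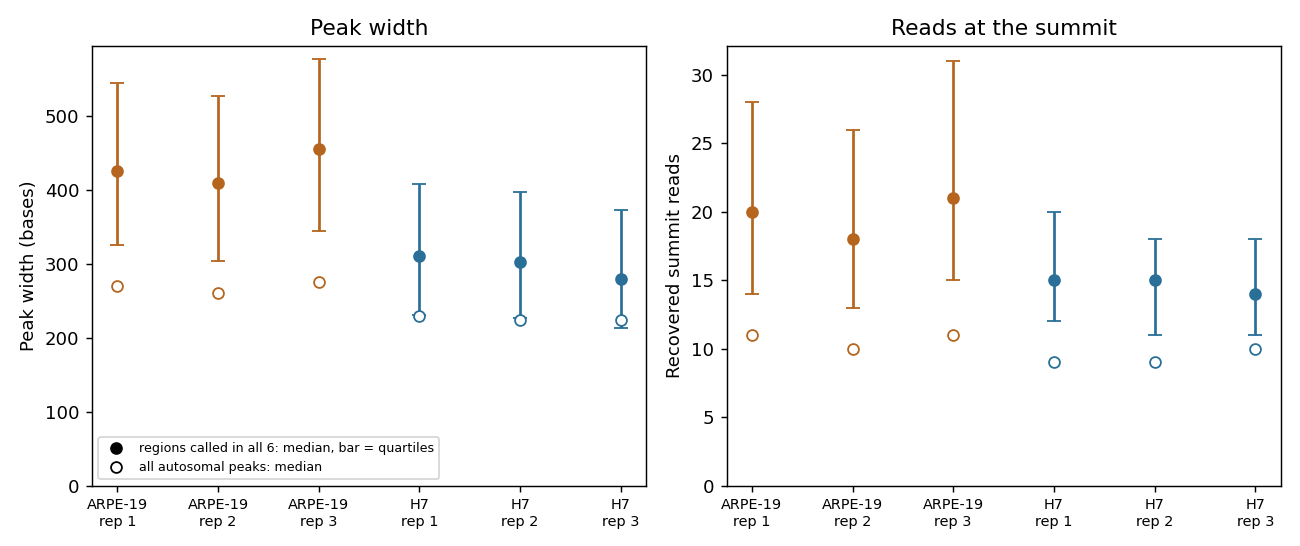
Filled points are medians over the 1495 shared regions in each library, with bars from the lower to the upper quartile, for peak width in bases and for recovered summit reads. Open points are medians over all autosomal peaks of the library. The ARPE-19 medians of width, 410 to 456 bases, lie above those of H7, 280 to 310 bases.

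Region by region, 274 of 1495 (18.3%) differed in log2 width (limma, Benjamini-Hochberg adjusted p under 0.05), 259 (17.3%) narrower and 15 (1.00%) wider in H7. After each library was centred on its median over the shared regions, a setting added after the data had been seen, 51 (3.41%) differed, 17 (1.14%) narrower and 34 (2.27%) wider in H7, so the calls then leaned the other way. The count was 87, 132 and 52 without ARPE-19 replicate 1, 2 and 3. In 646 regions (43.2%) all 3 H7 widths were below all 3 ARPE-19 widths and in 43 (2.88%) all were above. The next regions were singled out after their values were seen. The largest call of a narrower H7 peak was on chromosome 8 from 96281212 to 96282713, with widths of 1164, 1240 and 1106 bases in ARPE-19 and 176, 320 and 151 bases in H7 (log2 difference -2.52, SE 0.30, adjusted p = 0.00787 by limma). At least 1 library had 2 peaks in that region, of which the stronger was measured, no base was common to all 6 peaks, and the H7 summits were spread over 573 bases, so the H7 widths are not those of 1 common site. The opposite extreme lay on chromosome 1 from 243418557 to 243419643, with 298, 271 and 547 bases in ARPE-19 and 814, 946 and 1087 bases in H7 (log2 difference 1.41, SE 0.30, adjusted p = 0.0207 by limma). Its 6 summits nonetheless fell within 50 bases, so the peaks differed in extent while their highest points lay close together.

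The H7 peaks mostly sat inside the ARPE-19 peaks. The stretch spanned by the 3 H7 peaks lay within that of the 3 ARPE-19 peaks in 856 regions (57.3%), and the reverse held in 124 (8.29%). Merged regions had a median width of 590 bases, with quartiles of 482 and 734. In 1399 regions (93.6%) the strongest peaks of all 6 libraries shared at least 1 base, and the median length common to all 6 was 177 bases. In the other 96 no base was common, and those regions were joined through overlaps of some peaks only. A library held several peaks in 94 regions.

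Summits agreed most closely between ARPE-19 libraries. The median distance between the summits of 2 libraries was 42 to 43 bases for the 3 pairs of ARPE-19 libraries, 52 bases for each of the 3 H7 pairs and 52 to 58 bases for the 9 pairs of 1 library from each line. On average 22.5% of summit pairs of ARPE-19 libraries lay within 10 bases, against 16.5% for H7 and 16.6% across the lines. Pairs more than 150 bases apart made up 10.0%, 13.6% and 15.9%. The mean distance between the lines exceeded the mean within them by 8.06 bases (exact one-sided permutation test over 20 assignments, p = 0.1, the smallest possible). The distance within H7 was closer to that between the lines than to that within ARPE-19, and the H7 peaks had fewer reads.

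**Figure D3:**
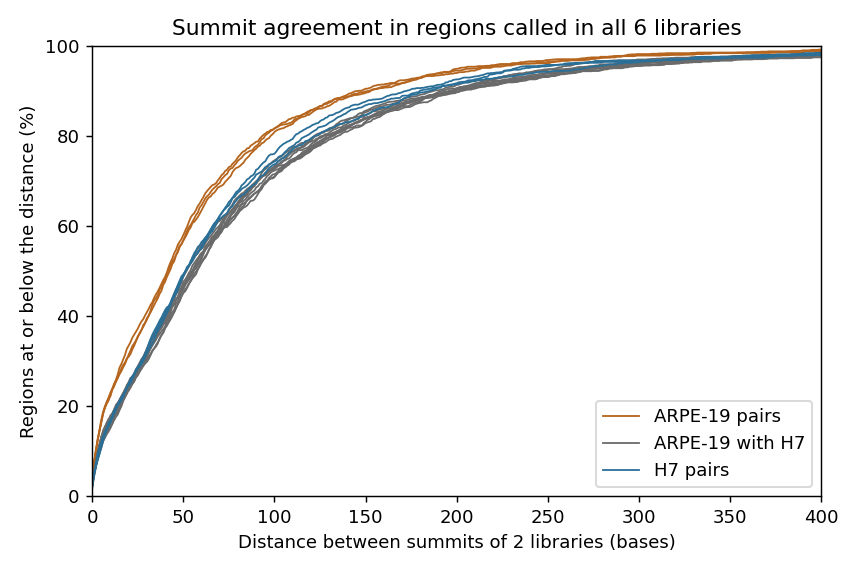
Each line is 1 of 15 pairs of libraries and gives the percentage of the 1495 shared regions, on the vertical axis, whose summits in both libraries lie within the distance on the horizontal axis, in bases. The 3 ARPE-19 pairs rise first, with medians of 42 to 43 bases, and the 3 H7 pairs and the 9 pairs between the lines lie close together, with medians of 52 to 58 bases.

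All 6 summits lay within 50 bases in 85 regions (5.69%), within 100 bases in 444 (29.7%) and within 150 bases in 817 (54.6%). Agreement was closer in stronger regions. The median span of the 6 summits was 115 bases in the highest of 3 equal parts by mean percentile, 135 in the middle and 188 in the lowest. By width it was 121 bases in the narrowest of 4 parts, 131 in the next and 154.5 in the one after, and it was highest in the widest. Shared regions did not stand out in the span of the 3 summits of 1 line, with medians of 71 bases against 67 in ARPE-19-only regions in ARPE-19, and 87 against 86 in H7-only regions in H7.

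The closest agreement was found on chromosome 3, in 3 regions chosen after their values were seen. On chromosome 3 from 58477549 to 58477954 the 6 summits lay 169 to 173 bases from the start of the region, with 11 to 20 reads each. Those from 96336127 to 96336586 fell within 6 bases and those from 32147758 to 32148208 within 7. The region at 96336127 also had nearly fixed widths, 454, 455 and 455 bases in ARPE-19 and 457, 354 and 455 in H7, and its background was 0.999 to 1.54 times that of the library. The exception in width was H7 replicate 2, which had the fewest reads there, 9 against 17 to 25 in the others.

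In 35 regions (2.34%) the summit moved between the lines (limma on summit position, Benjamini-Hochberg adjusted p under 0.05). It moved to a higher coordinate in H7 in 19 (1.27%) and to a lower one in 16 (1.07%), by a median of 276 bases and by 136 to 568 bases. In each of the 35 the 3 H7 summits lay entirely to 1 side of the 3 ARPE-19 summits, which was the case in 236 shared regions (15.8%), 115 (7.69%) to the higher and 121 (8.09%) to the lower side. The same positions entered the test, so this adds no support to it. The moved regions were wide, with a median of 760 bases. In 24 of them the 6 peaks shared a base, and in the other 11 no base was common. A library held several peaks in 5 of the 35, and only the strongest was measured there. The count was 11, 12 and 5 without ARPE-19 replicate 1, 2 and 3, where 2 libraries stand against 3.

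The 2 largest moves to a lower coordinate were on chromosome 7. From 11012532 to 11013564, H7 minus ARPE-19 was -568 bases (SE 22.4, limma adjusted p = 0.000177), with 39, 38 and 49 summit reads in ARPE-19 and 35, 31 and 27 in H7. All 6 peaks there shared 107 bases, so the highest point lay in different places of overlapping peaks. At least 1 library had 2 peaks in that region, of which the stronger was measured. From 90032626 to 90033435 the difference was -532 bases (SE 22.5, limma adjusted p = 0.000177), with 30, 33 and 41 reads in ARPE-19 and 28, 21 and 26 in H7, and the H7 peaks, 193 to 338 bases wide, lay in a 810-base region. The next 3 lay on chromosome 8 from 111847750 to 111848559, on chromosome 7 from 146488627 to 146489390 and on chromosome 4 from 89744266 to 89745018, with differences of -491, -431 and -352 bases. The one on chromosome 8 shared no base over the 6 libraries.

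The largest move to a higher coordinate was on chromosome 13 from 103248444 to 103249381, where the summits lay 216, 255 and 165 bases from the start in ARPE-19 and 754, 756 and 747 bases in H7, a difference of 540.3 bases (SE 30.0, limma adjusted p = 0.000639). It had 28, 19 and 26 reads in ARPE-19 and 16, 11 and 13 in H7, and no base common to all 6 peaks. At least 1 library had 2 peaks in this region too, of which the stronger was measured. On chromosome 7 from 12463317 to 12464341 the summits lay 107, 98 and 173 bases from the start in ARPE-19 and 699, 597 and 607 bases in H7, with 15, 10 and 16 reads against 26, 29 and 23. This region therefore differed in strength as well as in position, and it too had no common base. The others lay on chromosome 3 from 142314479 to 142315301, on chromosome 1 from 85809514 to 85810273 and on chromosome 10 from 110357691 to 110358541, with differences of 475, 419 and 370.0 bases. The one on chromosome 3 also held 2 peaks in at least 1 library.

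The order of strength among the shared regions was kept within a line far better than across the lines. Each library ranked the same 1495 regions by -log10 p, with 1 the strongest. Across regions, Spearman's rho of the ranks was 0.786 to 0.814 for the 3 ARPE-19 pairs, 0.548 to 0.576 for the 3 H7 pairs and 0.299 to 0.393 for the 9 pairs between the lines. These describe 1495 regions that share their libraries and depth. In 267 regions (17.9%) all 3 H7 ranks were higher than all 3 ARPE-19 ranks, and in 278 (18.6%) the reverse held. No test was made of these differences, since strength bears on membership.

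Some regions stood near the top of 1 line and near the bottom of the other. On chromosome 7 from 15055213 to 15055945 the summit reads were 9, 5 and 8 in ARPE-19 and 28, 19 and 20 in H7, and the ranks were 1401.5, 1485 and 1420.0 against 124.5, 353 and 229. On chromosome 1 from 196577513 to 196578520 the reads were 11, 13 and 11 in ARPE-19 and 36, 35 and 36 in H7. The others of the 5 largest differences toward H7 lay on chromosome 13 from 79232313 to 79232974, chromosome 5 from 95297506 to 95297994 and chromosome 4 from 175750016 to 175750842, with 5 to 12 reads in ARPE-19 and 17 to 29 in H7. Reads enter the -log10 p behind the ranks, so the difference in reads follows from the choice of these 5. The local background differed as well, and on chromosome 7 it was 1.01 to 1.53 times that of the library in ARPE-19 and 2.41 to 3.25 times in H7.

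Toward ARPE-19, the largest difference in rank was on chromosome 14 from 20929624 to 20930151, with 37, 51 and 56 reads in ARPE-19 and 11, 9 and 10 in H7. On chromosome 1 from 214489873 to 214490301 the reads were 46, 42 and 55 in ARPE-19 and 13, 12 and 12 in H7, at ranks of 66, 65 and 46 against 1212, 1291.5 and 1336. The others lay on chromosome 6 from 90927856 to 90928577, chromosome 3 from 18336521 to 18337102 and chromosome 2 from 158102772 to 158103569, with 24 to 43 reads in ARPE-19 and 7 to 12 in H7. Regions with all 3 ranks higher in ARPE-19 had a median log2 difference in width, H7 minus ARPE-19, of -0.79, those with all 3 ranks higher in H7 one of -0.09, and all shared regions one of -0.49. Peak width and rank thus moved together. Strength entered the choice of the regions, so this is a description.

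**Figure D4:**
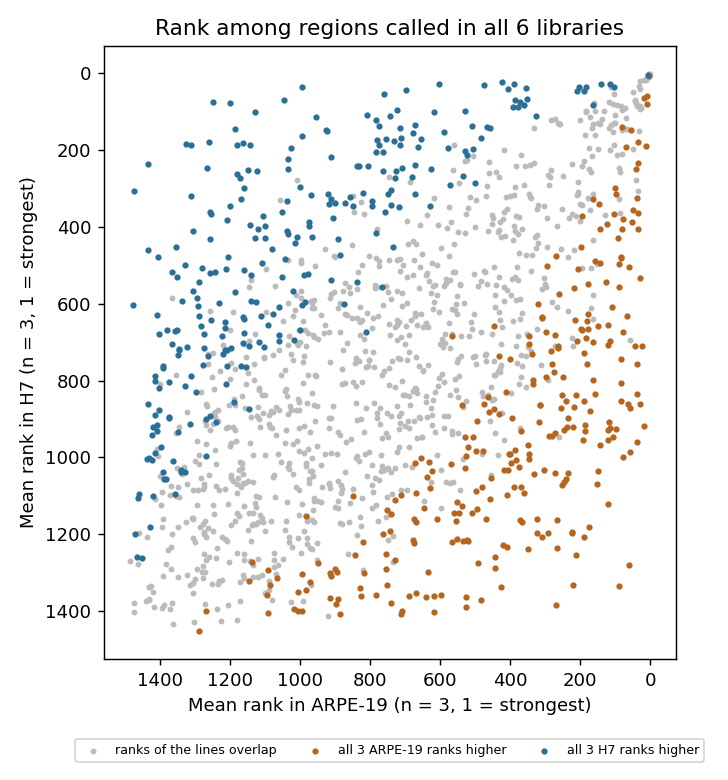
Each point is 1 of the 1495 shared regions, placed by its mean rank among them over the 3 ARPE-19 libraries (horizontal) and the 3 H7 libraries (vertical), with rank 1, the strongest, at the right and at the top. Colours mark the 267 regions with all H7 ranks above all ARPE-19 ranks and the 278 with the reverse.

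The chromosomes differed in how many of their stem cell regions were shared. On chromosome 19, 34 of the 37 regions with a peak in every H7 library, or 91.9%, also had one in every ARPE-19 library, against 45.7% over the autosomes. The share was 67.7% on chromosome 20 (21 of 31), 67.6% on chromosome 16 (23 of 34) and 60.9% on chromosome 14 (67 of 110). It was lowest on chromosome 18, at 28.4% (19 of 67), and on chromosome 13, at 32.6% (42 of 129).

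Seen from ARPE-19, chromosome 19 was again highest, with 8.13% of its 418 regions called in all 3 ARPE-19 libraries, and chromosome 18 lowest, with 2.54% of 748. Chromosome 14 was high by both measures, at 7.32%. Chromosomes 22, 16 and 20, with 55.6%, 67.6% and 67.7% when seen from H7, were low when seen from ARPE-19, at 3.05%, 3.58% and 3.85%. They had only 9, 34 and 31 regions with a peak in every H7 library. Regions on a chromosome are not replicates, and these shares were not tested.

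**Figure D5:**
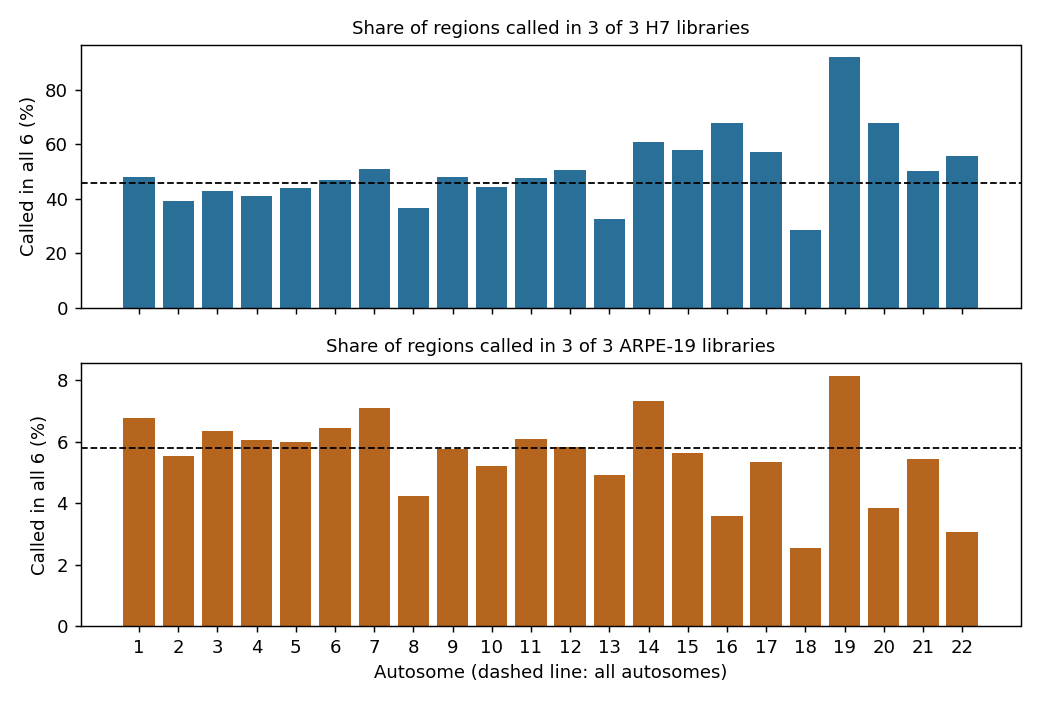
Bars give, for each autosome, the percentage of regions called in all 3 H7 libraries (upper panel) or in all 3 ARPE-19 libraries (lower panel) that were called in all 6. Dashed lines are the values over all autosomes, 45.7% and 5.78%, and chromosome 19 is highest in both panels at 91.9% and 8.13%.

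The median distance from a shared region to the nearest other one was 399 kb. Another shared region lay within 100 kb of 325 (21.7%) and within 10 kb of 26 (1.74%). Only 4 regions had another within 1 kb, and they formed 2 pairs, named after their values were seen. On chromosome 3 the regions from 101395042 to 101395471 and from 101395961 to 101396299 were separated by 0.489 kb and had 15, 19 and 19, and 19, 14 and 30 reads in ARPE-19, with 18 to 28 in H7. On chromosome 7 those from 12726128 to 12726698 and from 12727021 to 12727347 were 0.322 kb apart. There the first had widths of 399, 447 and 511 bases in ARPE-19 and 213, 184 and 189 in H7 (log2 difference -1.21, SE 0.20, limma adjusted p = 0.0114). The second had 167, 173 and 189 bases in ARPE-19 and 252, 296 and 256 in H7 (log2 difference 0.60, SE 0.19, limma adjusted p = 0.061). After centring on the library medians the calls changed places, with -0.67 (limma adjusted p = 0.104) for the first and 1.13 (limma adjusted p = 0.0248) for the second. Only the opposite directions of the pair held in both settings. A merged region of any class lay within 10 kb of 44.3% of shared regions, 43.1% of H7-only regions and 58.1% of ARPE-19-only regions.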

How the data were processed

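ATAC-seq peak lists of 3 ARPE-19 and 3 H7 libraries were used. The 6 4C samples were left out. The submitters' processing notes name hg19, MACS2 and bedtools. Aligner, duplicate handling and read shift are not given in the sources used here, and the shift bears on summit positions. The authors called peaks per library. The deposited lists give position, summit, score, fold enrichment (a ratio to the local background) and -log10 p and -log10 q. The deposited score was 10 times -log10 q in at least 99.988% of autosomal peaks of each list.

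Summit reads and local background were solved from fold and -log10 p, which met the deposited value within 0.001 for 100% of autosomal peaks. The most frequent background was taken as that of the library. Where a library had several peaks in a region, the one with the highest -log10 p was used. Libraries were compared by exact permutation tests and regions by limma 3.58.1 (R 4.3.3), adjusted over all 1495 regions. Steps were tested on simulated data. The other tools were scipy 1.17.1, numpy 2.4.6, matplotlib 3.10.9, pandas 2.3.3 and Python 3.11.15.

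The members and settings were chosen with earlier results of these data known. Regions named by rule were the 10 whose -log10 q percentile, averaged over the libraries, was highest, the 10 highest outside the high-background regions (5 of them in both lists), the 5 largest summit moves each way that passed the test, the 5 largest rank differences each way and the 3 weakest members and 3 strongest near-members. Results on promoters, gene lists, marker genes and sequence motifs were not run, since no hg19 gene models or sequence were used. The settings varied were a minimum -log10 q of 5, equal list lengths (8295 peaks), cover of 50% of the region, removal of high backgrounds, 1 peak per library, and leaving out each library.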

Additional observations from a re-analysis of the deposited data

Results flagged for a closer look

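Outside the autosomes, 43 regions on chromosome X were called in all 6 libraries, which is 1.56% of the 2763 merged regions there and compares with 1.83% on the autosomes. The rule that chose the shared regions kept to autosomes, so these entered no comparison above.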

How the results depend on the processing

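The number of shared regions, 1495, fell to 677 under a minimum -log10 q of 5, to 534 with lists of equal length and to 371 where each peak had to cover 50% of its region. Leaving out 1 library, which loosens the rule, gave 1518 to 2035. The log2 width difference kept its sign in all settings run, from -0.59 to -0.26, and so did the excess of summit distance, at 5.33 to 12.2 bases. No setting could bring their p below 0.1. Shifted summits, 35 of 1495 (2.34%), were 14 of 677 (2.07%) at the stricter -log10 q, 14 of 534 (2.62%) with equal lists, 4 of 371 (1.08%) with 50% cover, 20 of 1399 (1.43%) where all 6 peaks share a base (a setting added after the data had been seen), and 5 to 29 without 1 library. Changed widths, 274 of 1495 (18.3%), were 81 of 677 (12.0%) at the stricter -log10 q, 193 of 534 (36.1%) with equal lists, 47 of 371 (12.7%) with 50% cover, 178 with a log2 difference of at least 1, 51 after centring, and 52 to 263 without 1 library. High-background regions, 6, were 3 among those with 1 peak in each library, 179 if 1 library sufficed, and 7 to 69 without 1 library. Fewer regions tested lower a count by construction, and the cause of changes in the share was not tested. Of the 28 regions named by percentile, by rank difference or as the 3 weakest members, 16 stayed shared at the stricter -log10 q. With equal lists 18 stayed, and with 50% cover 11. The other named regions, among them those with the largest summit moves, were not followed in this way.

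With the replicate number as a block, 5 summits were shifted, all of them among the 35, and 191 widths changed. Of the largest moves named above, those at 11012532, 90032626 and 12463317 on chromosome 7 and at 103248444 on chromosome 13 stayed. The others had limma adjusted p of 0.053 to 0.098 with the block. The paired width difference was -0.53 (exact sign flip over 3 pairs, p = 0.25, the smallest possible). Same-numbered libraries did not deviate together in width (r across regions of -0.0029, 0.013 and 0.0087). In summit position their r was -0.081, -0.075 and -0.101, against -0.042 to 0.134 for libraries of different number. Whether same-numbered libraries share a batch was not tested. Results on promoters and motifs were not run. Reads limit each position: a summit of 4 to 6 reads, the fewest called, is placed only roughly.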
